A study of Mus musculus with 16 samples.

Results

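The genes described here build, bind, cut down or use the microtubules of neurons. They were chosen by symbol, as the rows of the day 5 and day 7 expression tables whose gene name was that of a tubulin, a neuronal microtubule-associated protein (MAP), a stathmin, an end-binding protein, a transport kinesin or a growth cone protein. All 43 were found, out of 55365 lines that name a gene in both tables. They fall into 7 β-tubulins, 5 α-tubulins, 1 γ-tubulin, 6 structural MAPs, 3 doublecortin family genes, 4 stathmins, 3 end-binding proteins, 7 transport kinesins, 2 TPPP genes and 5 genes of the growth cone and the collapsin response mediator proteins (CRMP). The values come from 16 RNA-seq libraries of neural stem cells (NSC), which had been isolated from the cortices of C57BL/6 mouse embryos at E15-16. NSC were grown as a monolayer with FGF2 (bFGF) and serum, and were transduced 1 day after seeding with a lentivirus that expressed either a scrambled shRNA (shRNA CON) or an shRNA against the long non-coding RNA *RUS* (shRNA RUS). Both arms thus carried a lentiviral shRNA, and no library came from cells without virus. From day 5 after seeding the cells were kept in Neurobasal medium with B27 and without FGF2, in which NSC differentiate. RNA was taken on day 5 and on day 7, with 4 libraries for each shRNA and day. The cortices of several embryos went into a culture, and the labels do not say whether the 4 libraries of a group came from separate cultures, so the p-values below measure the spread between these libraries. Day and medium changed together in this design and cannot be told apart.

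Microtubules are hollow tubes of α- and β-tubulin dimers that grow from γ-tubulin rings. A dividing progenitor rearranges them into a spindle, and a neuron into long bundles that carry cargo along its axon and dendrites. MAPs and doublecortin proteins stabilise these bundles, stathmins bind free dimers and favour shrinkage, end-binding proteins ride on the growing tips, and kinesins walk along the tubes with vesicles and organelles. Neurons and progenitors use different isotypes of tubulin, so that *Tubb3* (β-tubulin III), *Map2*, *Mapt* (tau) and *Dcx* (doublecortin) serve as markers of neurons, also in the study itself.

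Levels are given as scaled TPM, that is the deposited TPM (an RNA's share of all transcripts, corrected for length) divided by a factor for each library. Levels may thus be compared between genes. The depth of the libraries is unknown, since TPM keeps none, and between 25615 and 29126 genes per library had a TPM above 0. A gene is called higher or lower when the adjusted p of limma's test over all genes, with Benjamini-Hochberg adjustment, was below 0.05. The targeted RNA, annotated as *Gm20754*, was near the lower end of the scale in every library. Its TPM was 0.24, 0.11, 0.18 and 0.16 in shRNA CON on day 5 and 0.05, 0, 0.12 and 0.32 in shRNA RUS. On day 7 it was 0.70, 0.72, 0.26 and 0.54 in shRNA CON and 0.54, 0.38, 0 and 0.04 in shRNA RUS. The shRNAs overlapped on both days, and *Gm20754* was highest on day 5 in replicate 4 of shRNA RUS. The means with shRNA RUS were 71% of those with shRNA CON on day 5 and 43.2% on day 7, a direction that fits the labels. At these levels and with this overlap they are a weak check of single libraries, and the groups below are named by the shRNA they were labelled with. Among the members, replicate 4 of shRNA RUS on day 5 was the lowest or the highest of its 4 in 35 of the 43, and the other libraries were in 9 to 33. It lay far from the other 3 of its group in 7 members (*Tubb2a*, *Tubb2b*, *Tubb5*, *Map1b*, *Stmn3*, *Kif1b* and *Tppp3*), by Dixon's test.

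The marker genes of other cells moved as well. The 7 proliferation markers summed to 693 to 718 scaled TPM in shRNA CON and 389 to 434 with shRNA RUS on day 5, and to 713 to 722 and 286 to 321 on day 7, and all 7 were called lower on each day. The 12 neuron markers summed to 90.2 to 116 and 85.7 to 92.7 on day 5 and to 158 to 177 and 190 to 220 on day 7. Of the 11 tested, 1 was higher and 2 lower on day 5 and 8 higher and 2 lower on day 7, *Elavl4* and *Nefl* being the lower ones there. *Slc17a6*, the only glutamatergic marker in the list, reached at most 0.176 in any library, while the GABAergic *Gad1* lay between 19.9 and 55.8. Other glutamatergic genes were not looked at. NSC and radial glia markers were abundant, with sums of 12500 to 14700 in shRNA CON and 17800 to 21300 with shRNA RUS on day 5, without overlap, and of 6860 to 7120 and 7120 to 7780 on day 7. *Vim* and *Fabp7* carried these sums, and of the 8 markers 4 were higher and 2 lower on day 5 and 3 and 3 on day 7, with *Nes* falling by 0.87 and 1.19 and *Hes5* by 0.67 and 0.83 on the log2 scale. The 6 microglia markers summed to 66.7 to 84.7 over both arms on day 5, and to 181 to 193 in shRNA CON and 76.2 to 97.6 with shRNA RUS on day 7. Astrocyte markers summed to 4480 to 4690 and 6020 to 6380 on day 5 and to 2600 to 2680 and 3280 to 3420 on day 7, of which *Gfap* (1850 and 2790) and *Aldoc* (1330 and 1970, means of day 5) carried the difference. Of the 7 astrocyte markers 2 were higher and 1, *Slc1a2*, lower on day 5, and 3 were higher and 1 lower on day 7. The 7 fibroblast and vascular markers summed to 27.4 to 31.5 and 25.8 to 36.5 on day 5 and to 14.2 to 15.6 and 29.8 to 33.9 on day 7, of which the pericyte marker *Pdgfrb* held 10.6 and 26.3 (means of day 7), while endothelial *Cldn5* did not exceed 0.0589. In such bulk samples fewer cells of a type and less RNA per cell cannot be told apart, and the part of these cell types in the results was not tested.

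With shRNA RUS most tubulin genes fell, and by day 7 most MAPs rose. On day 5, 9 of the 43 members were called higher and 16 lower, beside 14.8% and 17.9% of the 22581 genes tested. On day 7, 17 were higher and 21 lower, beside 23.4% and 25.8% of 24606 genes. The members' log2 fold changes had medians of -0.13 on day 5 and -0.09 on day 7, beside -0.06 and -0.03 for all genes. The 7 genes called higher on both days were *Tuba4a*, *Map1a*, *Map4*, *Mapt*, *Mapre2*, *Gap43* and *Dpysl2*. Another 12 were lower on both days, among them 7 α- and β-tubulins, *Tubg1* and 3 kinesins. *Stmn2* and *Tppp3* went from higher to lower and *Kif21b* and *Crmp1* from lower to higher, and only *Tubb3*, *Tuba8* and *Stmn4* were called on neither day. In 27 members on day 5 and 33 on day 7 the libraries of the shRNAs did not overlap, beside 32.8% and 47% of all genes tested. None of the called directions turned when TPM was used as deposited or quantile normalised, but the split on day 5 was 4 higher and 23 lower with TPM as deposited, where the median over all genes stood at -0.21. Without replicate 4 of shRNA RUS, 10 were higher and 19 lower on day 5. For the 7 members in which that library lay far from the others, the log2 fold change without it was 0.12 for *Tubb2a*, -0.27 for *Tubb2b*, -0.22 for *Tubb5*, -0.24 for *Map1b*, -0.14 for *Stmn3*, -0.21 for *Kif1b* and 0.52 for *Tppp3*.

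**Figure D1:**
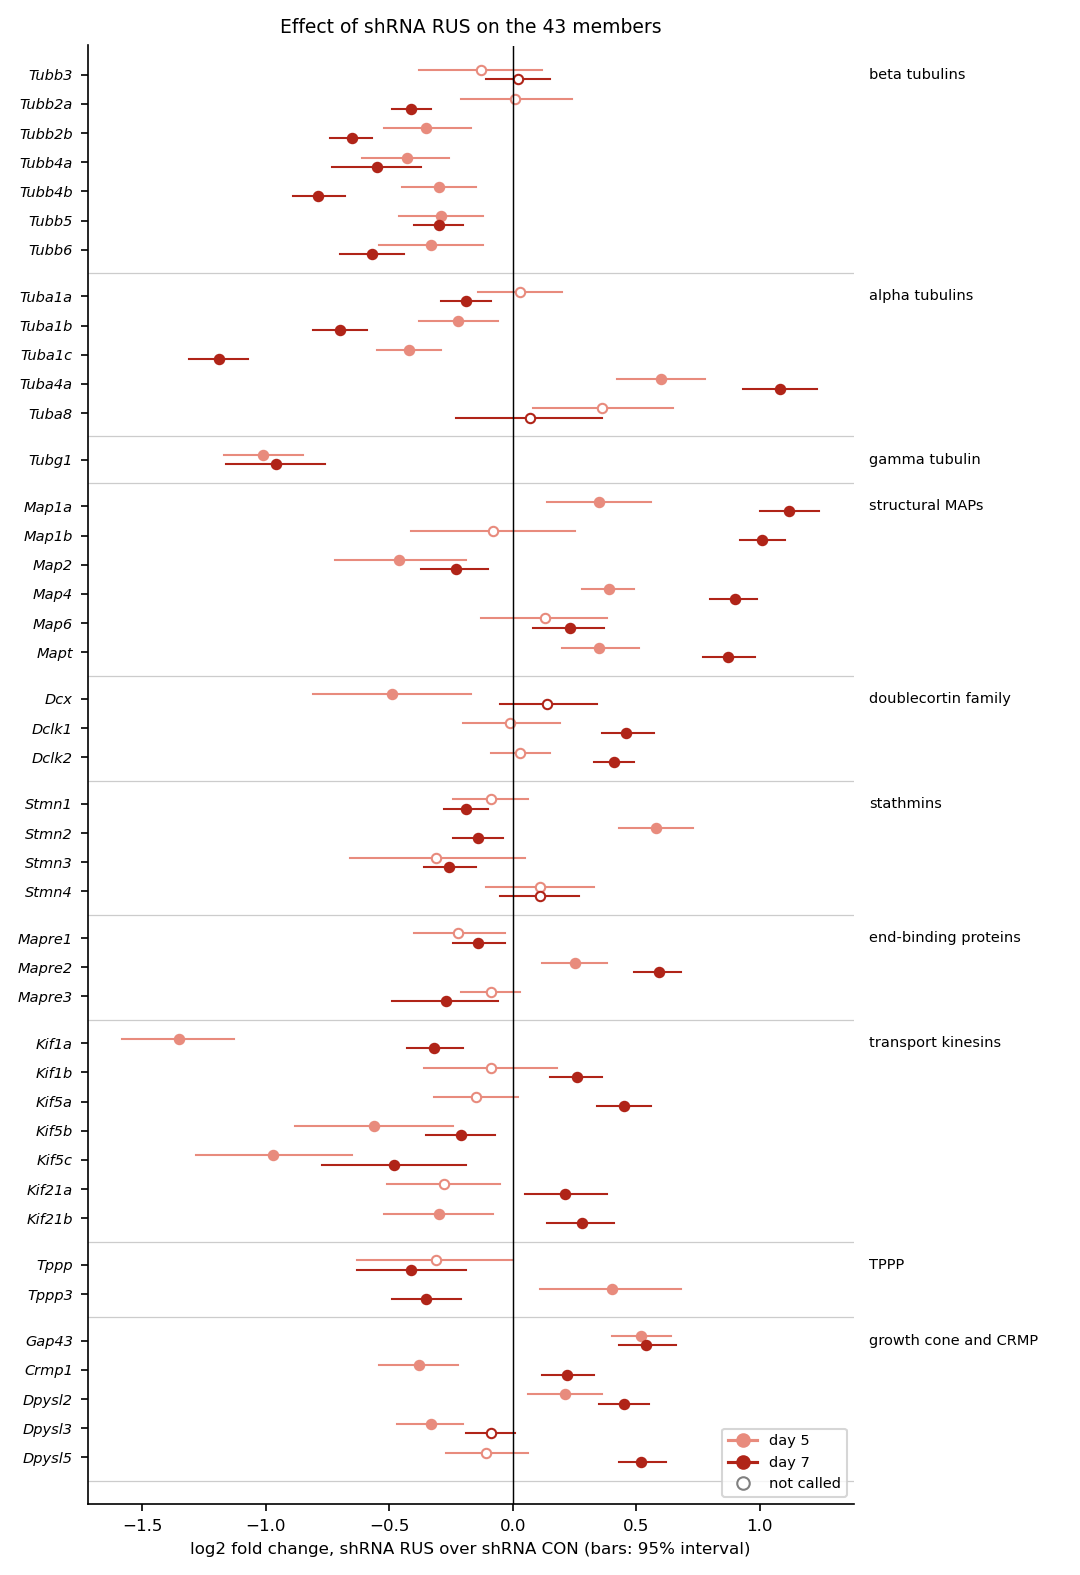
Log2 fold change of shRNA RUS over shRNA CON for the 43 members (rows, by role) on day 5 (light) and day 7 (dark), with 95% intervals of limma's test over 4 against 4 libraries. Filled points passed the test. The β-tubulins lie to the left of 0 except *Tubb3* on day 7 (0.02) and *Tubb2a* on day 5 (0.01), *Kif1a* has the lowest value on day 5 at -1.35, and *Map1a* has the highest on day 7 at 1.12.

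The promoters of 4 tubulin genes are shown because *Tubb4b* and the *Tuba1* neighbours changed by different amounts. *Tuba1b*, *Tuba1a* and *Tuba1c* lie next to each other on mouse chromosome 15, at chr15:98931425-98934565 and chr15:98949837-98953703 on the minus strand and chr15:99029891-99038110 on the plus strand (GENCODE vM21, GRCm38), and *Tubb4b* lies at chr2:25222160-25224702 on the minus strand. Each window holds 250 bases before and 50 after the RefSeq start on GRCm38.p6, is written 5′ to 3′ on the strand of the gene, and has the searched motifs in capitals. The motifs were CCAAT (the NF-Y box), TTTGAA (a cell cycle homology region), TTTNNCGC (an E2F-like site), and the E-boxes CAGCTG and CAGATG, each on either strand. A motif was counted also where it overlapped another.
Tubb4b, chr2:25224653-25224952, minus strand: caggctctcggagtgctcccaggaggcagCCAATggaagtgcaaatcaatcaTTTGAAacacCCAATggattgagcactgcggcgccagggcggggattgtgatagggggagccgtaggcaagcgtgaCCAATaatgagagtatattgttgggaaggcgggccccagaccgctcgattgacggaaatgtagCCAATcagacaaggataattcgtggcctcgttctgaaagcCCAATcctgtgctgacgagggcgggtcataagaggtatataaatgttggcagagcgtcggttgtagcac
Tuba1a, chr15:98953452-98953751, minus strand: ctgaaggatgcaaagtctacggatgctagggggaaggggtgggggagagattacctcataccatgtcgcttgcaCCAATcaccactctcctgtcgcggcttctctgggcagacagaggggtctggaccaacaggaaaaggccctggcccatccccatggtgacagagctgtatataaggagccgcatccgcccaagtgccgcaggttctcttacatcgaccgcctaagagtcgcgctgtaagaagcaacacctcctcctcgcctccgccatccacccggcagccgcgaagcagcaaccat
Tuba1b, chr15:98934341-98934640, minus strand: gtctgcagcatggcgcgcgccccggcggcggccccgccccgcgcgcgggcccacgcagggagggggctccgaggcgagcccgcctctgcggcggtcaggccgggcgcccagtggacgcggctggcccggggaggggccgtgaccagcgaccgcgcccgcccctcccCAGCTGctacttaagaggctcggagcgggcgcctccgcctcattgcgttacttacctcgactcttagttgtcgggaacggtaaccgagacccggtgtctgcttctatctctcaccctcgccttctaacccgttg
Tuba1c, chr15:99029641-99029940, plus strand: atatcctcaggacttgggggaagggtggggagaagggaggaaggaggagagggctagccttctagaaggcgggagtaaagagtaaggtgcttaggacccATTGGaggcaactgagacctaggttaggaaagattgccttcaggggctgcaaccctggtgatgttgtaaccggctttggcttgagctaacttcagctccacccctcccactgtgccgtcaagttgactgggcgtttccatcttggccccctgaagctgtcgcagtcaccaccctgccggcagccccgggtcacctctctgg
The *Tubb4b* window held 5 CCAAT boxes and 1 TTTGAA, and 89 of the 32851 promoter windows of the table (0.271%) held at least 5 CCAAT. *Tuba1a* and *Tuba1c* had 1 CCAAT each and *Tuba1b* 1 CAGCTG. A match of letters is a description and not a binding site. Over the 34 windows of the 27 members in the table, CCAAT occurred in 41.2% against 37.4% of all windows, TTTGAA in 5.88% against 17.9%, TTTNNCGC in 5.88% against 5.17%, CAGCTG in 17.6% against 16.3% and CAGATG in 14.7% against 17.2%.

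Of the 7 β-tubulins, 5 were called lower on day 5 and all but *Tubb3* on day 7, and none was higher. *Tubb4b*, a widely expressed isotype that is also the β-tubulin of motile cilia, was the most abundant on average. It stood at 579, 617, 622 and 659 scaled TPM in shRNA CON on day 5 and at 495, 541, 519 and 455 in shRNA RUS. By day 7 it stood at 1680, 1570, 1570 and 1510 in shRNA CON and at 929, 892, 966 and 855 in shRNA RUS. The shRNAs did not overlap on either day, and the control libraries of day 7 were above all others. Log2 fold changes were -0.30 ± 0.07 (SE, n = 4 and 4, adjusted p = 0.00903, limma) and -0.79 ± 0.05 (adjusted p = 1.49e-06). Of the 5 motile cilia markers 4 were called lower on day 5 and 5 on day 7, with sums of 292 to 349 and 243 to 309 on day 5, which overlapped, and of 671 to 745 and 371 to 453 on day 7. The one not called on day 5 was *Foxj1* (log2 fold change -0.08), and the part of these markers in *Tubb4b* was not tested. RNA of *Tubb4b* shares 55.5% of its 50-base windows with other genes, mostly the pseudogene *Tubb4b-ps1*, so its level depends on how reads were divided.

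*Tubb3*, the isotype stained as the marker of neurons, did not pass the test on either day. Its scaled TPM was 165, 136, 145 and 175 in shRNA CON and 147, 149, 156 and 115 with shRNA RUS on day 5. On day 7 it was 239, 228, 236 and 245 in shRNA CON and 257, 214, 231 and 253 in shRNA RUS. The groups overlapped on both days, and the 95% interval of the log2 fold change ran from -0.38 to 0.12 on day 5 and from -0.11 to 0.15 on day 7. None of the bases of *Tubb3* was shared with another gene over 50 bases. The other β-tubulins were all called lower on day 7. *Tubb2b*, an isotype of young neurons and progenitors, fell by 0.35 on the log2 scale on day 5 and by 0.65 on day 7 (adjusted p = 0.00787 and 1.13e-06). Its neighbour *Tubb2a* had a log2 fold change of 0.01 on day 5, which was not called, and fell by 0.41 on day 7. *Tubb2a* and *Tubb2b* share 49.6% and 39.3% of their 50-base windows with other genes, mostly with each other, so the contrast between them depends on how reads were divided. *Tubb4a*, abundant in myelinating cells, fell by 0.43 and 0.55, *Tubb5*, a major isotype of dividing cells, by 0.29 and 0.30, and *Tubb6* by 0.33 and 0.57. The call for *Tubb6* on day 5 was lost without replicate 2 or 3 of shRNA CON (adjusted p = 0.0579 and 0.064).

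Of the 5 α-tubulins, 3 were lower and 1 higher on day 7. *Tuba1a*, the main α-tubulin of the developing brain, was the most abundant gene of all members. It stood at 3150, 3040, 3100 and 3390 scaled TPM in shRNA CON and 3440, 3410, 3240 and 2860 with shRNA RUS on day 5. On day 7 its values were 4500, 4160, 4130 and 4190 in shRNA CON and 3920, 3520, 3710 and 3610 in shRNA RUS. The groups overlapped on day 5 (log2 fold change 0.03, adjusted p = 0.808) and were apart on day 7, with a log2 fold change of -0.19 ± 0.04 (adjusted p = 0.00603, limma). *Tuba1c*, a minor isotype of proliferating cells, had the largest fall of the α- and β-tubulins on day 7. It went from 46.2, 53.5, 52.4 and 50.5 in shRNA CON to 37.9, 37.0, 38.3 and 38.0 in shRNA RUS on day 5, and from 39.7, 38.7, 41.3 and 37.9 to 16.6, 15.9, 17.9 and 18.1 on day 7. No library of shRNA RUS reached the lowest control of its day, and the log2 fold changes were -0.42 ± 0.06 (adjusted p = 0.000642) and -1.19 ± 0.05 (adjusted p = 2.90e-07). *Tuba1b*, between them in level, fell by 0.22 and 0.70. Its call on day 5 was lost without any one of the 4 shRNA CON libraries or without replicate 2 or 3 of shRNA RUS (adjusted p from 0.0577 to 0.109). *Tuba4a*, an isotype of mature cells that is made without a coded C-terminal tyrosine, went the other way, with log2 fold changes of 0.60 ± 0.08 and 1.08 ± 0.07 (adjusted p = 0.000543 and 1.65e-06). *Tuba8* stayed below 3.5 scaled TPM and was not called on either day, although its groups did not overlap on day 5 (log2 fold change 0.36, adjusted p = 0.0528). Without replicate 4 of shRNA RUS it passed (adjusted p = 0.0473), and so it did after quantile normalization (0.0125). Windows of 50 bases were shared with other genes for 75.5% of *Tuba1a*, 83.1% of *Tuba1b* and 61.0% of *Tuba1c*, mostly with each other, and for 48.8% of *Tuba4a*, with *Stk16*, which overlaps it, so these levels are uncertain to that extent.

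*Tubg1*, the γ-tubulin that nucleates microtubules at centrosomes, was reduced to about the same level on both days. It was 42.8, 44.6, 43.9 and 49.0 scaled TPM in shRNA CON and 20.8, 24.6, 22.2 and 21.6 with shRNA RUS on day 5. On day 7 the values were 38.0, 40.0, 38.4 and 34.1 against 16.5, 18.4, 21.7 and 20. Every library of shRNA CON exceeded every library of shRNA RUS, and the levels of shRNA RUS were 0.496 times the control on day 5 and 0.513 times on day 7 (log2 fold changes -1.01 ± 0.07 and -0.96 ± 0.09, adjusted p = 2.3e-05 and 1.65e-05, limma). Proliferation markers fell in the same libraries, as given above.

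**Figure D2:**
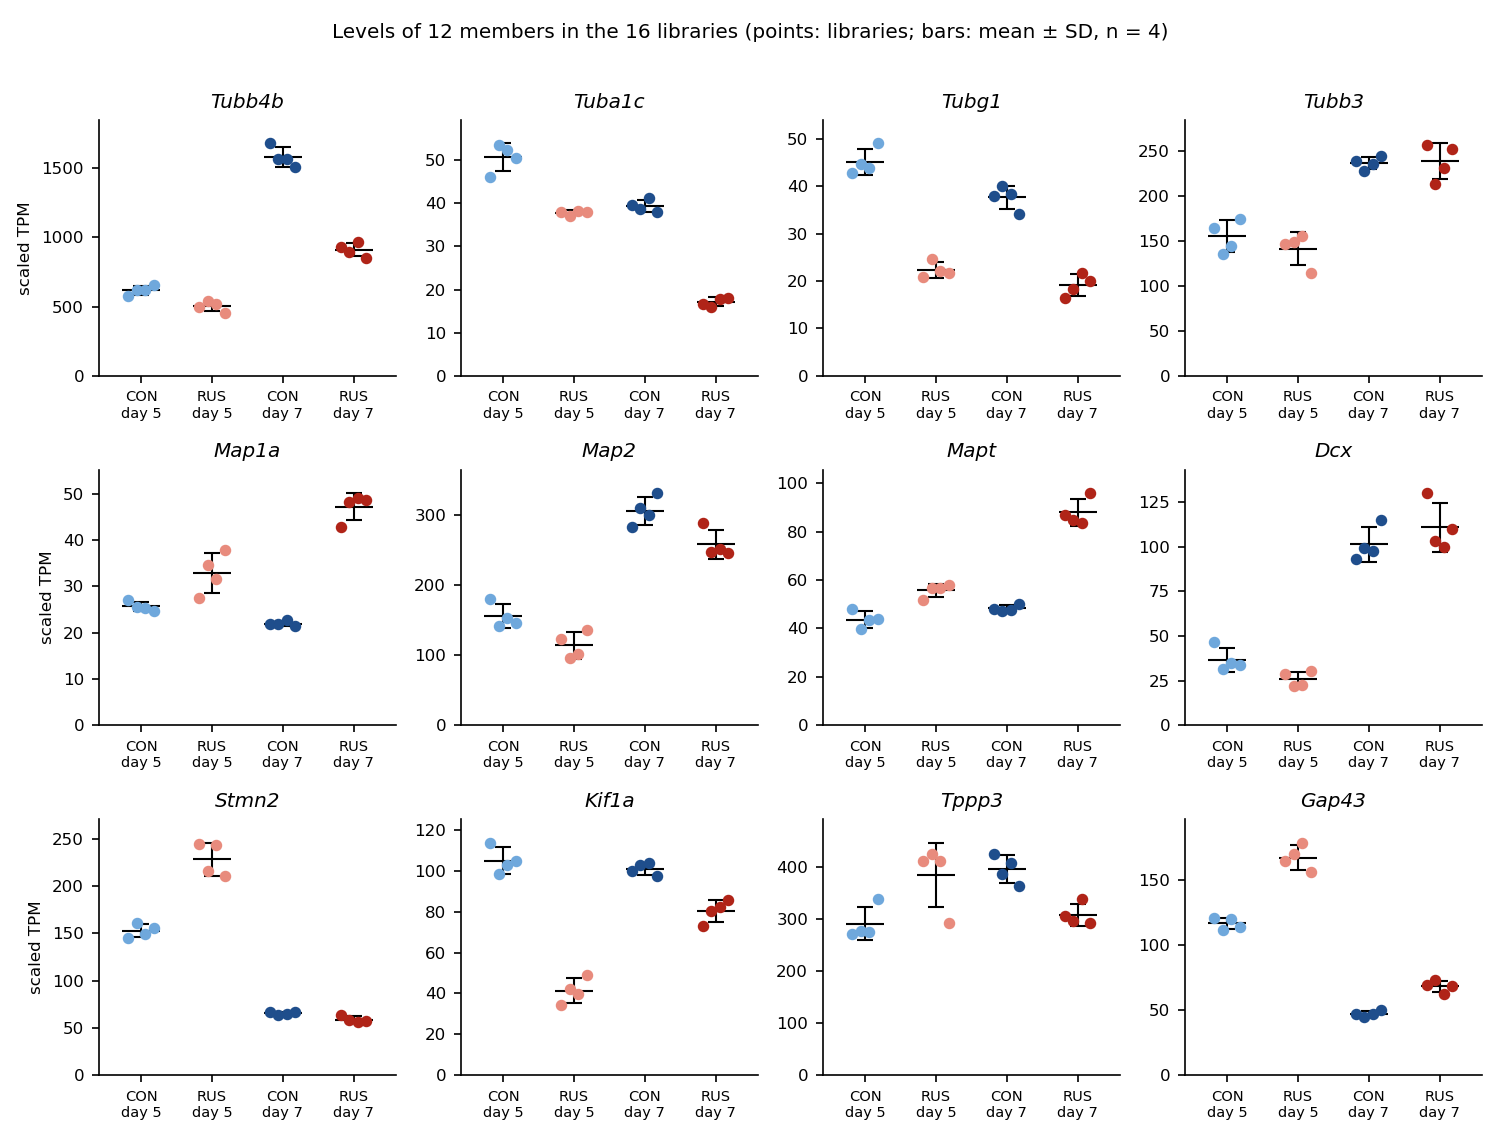
Scaled TPM (vertical axes, from 0) of 12 members in the 16 libraries, by shRNA and day. Points are libraries and bars the mean ± SD of 4. *Tuba1c* and *Tubg1* are lower with shRNA RUS on both days, *Map1a* rises to 42.8 to 49.1 on day 7, *Tubb3* overlaps on each day, and *Kif1a* on day 5 lies between 34.4 and 49.1 with shRNA RUS.

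By day 7 all structural MAPs except *Map2* had risen with shRNA RUS. On day 5, 3 of 6 were higher and 1 lower, and on day 7, 5 were higher and 1 lower, where their log2 fold changes had a median of 0.89. *Map1a*, a MAP of mature dendrites and axons, had the largest change on day 7. It stood at 27.1, 25.6, 25.3 and 24.7 scaled TPM in shRNA CON and 27.6, 34.6, 31.6 and 37.9 with shRNA RUS on day 5, and at 21.8, 21.8, 22.7 and 21.4 against 42.8, 48.2, 49.1 and 48.7 on day 7. The day 5 groups were separated by a narrow gap and the day 7 groups by a wide one. Log2 fold changes were 0.35 ± 0.09 (adjusted p = 0.0183) and 1.12 ± 0.05 (adjusted p = 3.83e-07, limma). Without replicate 2 of shRNA RUS the adjusted p on day 5 was 0.0511, and with TPM as deposited it was 0.237. *Mapt*, which codes for the axonal tau protein, was 47.9, 39.6, 43.5 and 43.8 in shRNA CON and 51.7, 56.7, 56.9 and 57.8 with shRNA RUS on day 5. By day 7 it was 47.9, 47.3, 47.7 and 50.3 against 87.0, 84.9, 83.7 and 95.9. No libraries overlapped, and the log2 fold changes were 0.35 ± 0.07 (adjusted p = 0.00356, and 0.128 with TPM as deposited) and 0.87 ± 0.05 (adjusted p = 6.38e-07).

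*Map2*, the dendritic MAP that the study stained, was lower on both days. Its levels were 181, 142, 154 and 147 scaled TPM in shRNA CON and 123, 95.8, 102 and 136 with shRNA RUS on day 5. On day 7 they were 284, 310, 301 and 332 in shRNA CON and 289, 248, 252 and 246 in shRNA RUS, where replicate 1 of shRNA RUS was above the lowest control. The log2 fold change was -0.46 ± 0.12 on day 5 (adjusted p = 0.0156) and -0.23 ± 0.06 on day 7 (adjusted p = 0.00995). *Map4*, a MAP of dividing and non-neuronal cells, rose by 0.39 and 0.90 (adjusted p = 0.000371 and 2.92e-07). *Map1b*, the MAP of growing axons, had a log2 fold change of -0.08 on day 5 that was not called, and rose by 1.01 on day 7 (adjusted p = 1.76e-07). On day 5 replicate 4 of shRNA RUS held 56.1 of *Map1b* while the other 3 held 33.7 to 37.3, and without it *Map1b* was called lower by 0.24 (adjusted p = 0.0274). *Map6*, which protects microtubules from cold, rose by 0.23 on day 7 and was not called on day 5.

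Of the 3 doublecortin family genes 1 was lower on day 5, and the other 2 were higher on day 7. *Dcx*, the MAP of migrating young neurons, stood at 46.5, 31.4, 34.7 and 34.0 scaled TPM in shRNA CON and 28.9, 22.1, 22.6 and 30.2 with shRNA RUS on day 5. On day 7 it stood at 93.1, 99.4, 97.4 and 115 against 130, 103, 100 and 110. It was lower on day 5 (log2 fold change -0.49 ± 0.14, adjusted p = 0.0252) with no overlap, and overlapped on day 7 (0.14, 95% interval -0.05 to 0.34). The call was lost without replicate 2 or 3 of shRNA RUS (adjusted p = 0.0707 and 0.0703). *Dclk1*, a doublecortin-like kinase of progenitors and neurons, was the most abundant of the family on average over the 16 libraries. On day 7 the means of *Dcx* were higher, at 101 in shRNA CON and 111 in shRNA RUS, beside 79.8 and 109 for *Dclk1*. *Dclk1* was 122, 118, 121 and 106 in shRNA CON and 116, 109, 104 and 137 with shRNA RUS on day 5, and 75.8, 78.4, 77.3 and 87.8 against 114, 106, 106 and 109 on day 7. *Dclk2*, the paralog that the study followed by RT-qPCR, was 91.2, 79.0, 82.3 and 85.8 against 83.3, 86.1, 87.2 and 87.8 on day 5, and 63.6, 64.0, 62.4 and 61.8 against 79.9, 82.2, 83.2 and 86.7 on day 7. Both kinases overlapped on day 5 (adjusted p = 0.968 and 0.716) and were apart on day 7, with log2 fold changes of 0.46 ± 0.05 for *Dclk1* and 0.41 ± 0.04 for *Dclk2* (adjusted p = 3.35e-05 and 1.13e-05, limma).

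Of the 4 stathmins 1 was higher on day 5, and 3 were lower on day 7. *Stmn1*, the stathmin of progenitors, was the most abundant. It was 864, 945, 896 and 964 scaled TPM in shRNA CON and 898, 836, 917 and 794 with shRNA RUS on day 5, and 799, 793, 761 and 774 against 731, 679, 657 and 652 on day 7. The day 5 groups overlapped (log2 fold change -0.09, adjusted p = 0.328), but *Stmn1* was called lower there with TPM as deposited (-0.25, adjusted p = 0.00286) and after quantile normalization (-0.36, adjusted p = 0.000491). Its log2 fold change on day 7 was -0.19 ± 0.04 (adjusted p = 0.0033, and 0.051 after quantile normalization). *Stmn2*, the stathmin of growth cones, turned from higher to lower. It was 145, 161, 149 and 156 in shRNA CON and 244, 216, 243 and 211 with shRNA RUS on day 5. By day 7 it was 66.5, 63.4, 64.6 and 67.0 against 64.0, 58.2, 55.8 and 56.9. The difference on day 5 was wide and without overlap (log2 fold change 0.58 ± 0.07, adjusted p = 0.00021), and that on day 7 was narrow and with overlap (-0.14 ± 0.05, adjusted p = 0.0256). Without replicate 1 or 4 of shRNA CON, or replicate 2, 3 or 4 of shRNA RUS, the day 7 call was lost (adjusted p from 0.0568 to 0.0719). *Stmn3*, a neuronal stathmin of the Golgi, fell by 0.26 on day 7 (adjusted p = 0.00136) and on day 5 it passed with TPM as deposited (-0.46, adjusted p = 0.022). *Stmn4* was called on neither day.

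Of the end-binding proteins *Mapre2* rose on both days. *Mapre1* (EB1) was 111, 119, 117 and 116 scaled TPM in shRNA CON and 112, 88.7, 90.6 and 110 with shRNA RUS on day 5, and 116, 122, 123 and 129 against 114, 111, 114 and 103 on day 7. It overlapped on day 5 (log2 fold change -0.22, adjusted p = 0.0743) and fell by 0.14 on day 7 (adjusted p = 0.0328). Without replicate 2, 3 or 4 of shRNA CON or 2 or 4 of shRNA RUS the day 7 call was lost (adjusted p from 0.0598 to 0.0772). On day 5 it passed without replicate 1 or 4 of shRNA RUS (adjusted p = 0.0358 and 0.0355), with TPM as deposited (-0.37, 0.0117) and after quantile normalization (-0.34, 0.0184). *Mapre2* (EB2) stood at 49.9, 47.8, 47.5 and 46.7 in shRNA CON and 55.2, 56.0, 53.9 and 62.8 with shRNA RUS on day 5. On day 7 it stood at 43.8, 45.1, 43.3 and 47.2 against 70.6, 63.7, 66.5 and 66.2. No libraries overlapped, with log2 fold changes of 0.25 ± 0.06 (adjusted p = 0.0106, 0.439 with TPM as deposited and 0.0713 after quantile normalization) and 0.59 ± 0.04 (adjusted p = 3.45e-06). *Mapre3* (EB3), the end-binding protein of neurons, fell by 0.27 on day 7 (adjusted p = 0.0371), with overlap, and lost its call without any one of replicates 1 to 3 of either shRNA (adjusted p from 0.0524 to 0.0957). On day 5 it was not called (log2 fold change -0.09), but passed with TPM as deposited (-0.25, adjusted p = 0.0208) and after quantile normalization (-0.17, 0.04).

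Among the transport kinesins 4 of 7 were lower and none higher on day 5, and 3 were lower and 4 higher on day 7. *Kif1a*, the kinesin-3 motor of synaptic vesicle precursors, had the largest fall of all members on day 5. It stood at 114, 98.6, 103 and 105 scaled TPM in shRNA CON and at 34.4, 42.2, 39.5 and 49.1 in shRNA RUS. By day 7 it stood at 100, 103, 104 and 97.8 against 73.3, 80.7, 82.4 and 85.9. No libraries overlapped on either day. The level with shRNA RUS was 0.392 times the control on day 5 (log2 fold change -1.35 ± 0.10, adjusted p = 3.2e-05) and 0.804 times on day 7 (-0.32 ± 0.05, adjusted p = 0.000674, limma). *Kif1b*, its paralog that also carries mitochondria, was the most abundant of the 7. Its levels were 175, 146, 153 and 138 against 134, 134, 126 and 184 on day 5 and 146, 148, 154 and 155 against 182, 183, 186 and 164 on day 7. They overlapped on day 5, where replicate 4 of shRNA RUS was above all controls, and were apart on day 7 (0.26 ± 0.05, adjusted p = 0.0011).

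*Kif5c*, a neuronal chain, fell by 0.97 on day 5 and by 0.48 on day 7 (adjusted p = 0.000838 and 0.0114), and the ubiquitous *Kif5b* by 0.56 and 0.21 (adjusted p = 0.0142 and 0.0208). On day 7 the libraries of *Kif5c* overlapped, at 22.6 to 28.1 scaled TPM in shRNA CON and 15.1 to 23.1 in shRNA RUS. *Kif5a*, the neuronal chain that is made late, did not overlap on day 5 but did not pass (log2 fold change -0.15, adjusted p = 0.17, and -0.31 with 0.0407 with TPM as deposited), and it rose by 0.45 on day 7 (adjusted p = 4.26e-05). For *Kif5b* the call on day 7 was lost without replicate 4 of shRNA CON (adjusted p = 0.0507). The kinesin-4 motors *Kif21a* and *Kif21b*, which restrain microtubule growth, had log2 fold changes of -0.28 and -0.30 on day 5 and 0.21 and 0.28 on day 7. *Kif21b* passed on both days and *Kif21a* on day 7. Several of these calls hung on single libraries. *Kif21b* on day 5 was lost without replicate 1 or 4 of shRNA CON or 1, 2 or 3 of shRNA RUS (adjusted p from 0.0775 to 0.1) or after quantile normalization (0.147), and *Kif21a* on day 7 without replicate 1, 2 or 3 of shRNA CON or 1, 2 or 4 of shRNA RUS (0.0683 to 0.102) or after quantile normalization (0.106). On day 5 *Kif21a* passed without replicate 4 of shRNA RUS (log2 fold change -0.37, adjusted p = 0.00675) and with TPM as deposited (-0.44, 0.0238).

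*Tppp3*, which bundles microtubules and is abundant in multiciliated cells, reversed between the days. It was 272, 278, 276 and 338 scaled TPM in shRNA CON and 411, 425, 412 and 293 with shRNA RUS on day 5. On day 7 it was 425, 387, 408 and 364 against 305, 296, 338 and 292. On day 5 replicate 4 of each shRNA lay toward the other group, and on day 7 the groups were apart. Log2 fold changes were 0.40 ± 0.13 (adjusted p = 0.0381) and -0.35 ± 0.06 (adjusted p = 0.00121, limma). The day 5 call was lost without any one of replicates 1 to 3 of either shRNA (adjusted p from 0.087 to 0.0983), and under both other scalings (0.102 with TPM as deposited and 0.135 after quantile normalization). *Tppp*, the paralog of myelinating oligodendrocytes, was low. It was 1.55, 1.58, 1.49 and 1.89 against 1.28, 1.17, 1.18 and 1.54 on day 5 and 4.49, 4.94, 4.45 and 4.69 against 4.07, 3.43, 3.07 and 3.23 on day 7. It overlapped on day 5 (adjusted p = 0.12, and 0.0464 with TPM as deposited) and fell by 0.41 on day 7 (adjusted p = 0.00576). The 8 oligodendrocyte markers summed to 375 to 412 in shRNA CON and 239 to 263 with shRNA RUS on day 7, and their part in *Tppp* was not tested.

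Of the 5 growth cone and CRMP genes 4 were higher on day 7. *Gap43*, a membrane protein of growing axons, was 121, 112, 120 and 114 scaled TPM in shRNA CON and 165, 170, 179 and 156 with shRNA RUS on day 5, and 47.1, 44.8, 46.9 and 49.8 against 69.3, 72.9, 62.1 and 68.5 on day 7. It did not overlap on either day and changed by the same amount, with log2 fold changes of 0.52 ± 0.06 and 0.54 ± 0.05 (adjusted p = 0.000155 and 2.19e-05). The CRMP genes code for proteins that bind tubulin dimers in axons. *Dpysl3* (CRMP4), the most abundant of them, was 170, 148, 157 and 154 in shRNA CON and 127, 119, 118 and 134 with shRNA RUS on day 5, and 187, 194, 191 and 207 against 194, 172, 173 and 187 on day 7. It was lower on day 5 (-0.33 ± 0.06, adjusted p = 0.0026) and overlapped on day 7 (95% interval -0.19 to 0.01). *Crmp1* fell by 0.38 on day 5 (adjusted p = 0.00348) and rose by 0.22 on day 7 (adjusted p = 0.00305). *Dpysl2* (CRMP2) rose by 0.21 and 0.45, with the day 5 call lost without any one of the 4 shRNA CON libraries or replicate 2 or 3 of shRNA RUS (adjusted p from 0.0621 to 0.0893), and 0.638 with TPM as deposited. *Dpysl5* (CRMP5) was not called on day 5 and rose by 0.52 on day 7 (adjusted p = 6.17e-06).

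From day 5 to day 7, when the cultures differentiated, 21 of the 43 members rose and 12 fell in shRNA CON, beside 26.9% and 21.6% of 23789 genes. In shRNA RUS 26 rose and 8 fell, beside 35% and 25.8%. The splits were 26 and 7 in shRNA CON and 35 and 5 in shRNA RUS with TPM as deposited, where the median of all genes was 0.21 and 0.42 in place of 0.07 and 0.13. The markers of neurons rose in both arms. *Dcx* rose most, by 1.48 ± 0.13 on the log2 scale in shRNA CON and by 2.10 ± 0.13 in shRNA RUS (adjusted p = 1.47e-07 and 1.73e-09), *Map2* by 0.98 and 1.19, and *Tubb3* by 0.62 and 0.76. *Mapt* rose by 0.65 in shRNA RUS, and by 0.15 in shRNA CON (adjusted p = 0.0495), a call that was lost without any one of 12 libraries (up to 0.18). Among the tubulins of shRNA CON, *Tubb4b* rose by 1.36, *Tuba1b* by 0.90, *Tubb2a* by 0.70 and *Tubb2b* by 0.62. In the same arm 5 of 5 motile cilia markers rose (median 1.31), 4 of 6 of microglia (0.95) and 5 of 8 of the oligodendrocyte lineage (0.79), and their part in these rises was not tested. These 4 tubulin genes rose by 0.86, 0.41, 0.26 and 0.30 in shRNA RUS, where *Tubb2a* rose by 0.16 without replicate 4 of day 5. Over the alternatives the rises in shRNA RUS ranged from 0.81 to 1.43 for *Tubb4b*, 0.16 to 0.83 for *Tubb2a* and 0.23 to 0.86 for *Tubb2b*. In shRNA CON these ranges were 1.32 to 1.67, 0.67 to 0.97 and 0.59 to 0.91. That of *Tuba1b* ran from 0.35 to above 0.90 in shRNA RUS and from 0.88 to 1.17 in shRNA CON. The size of the rises in shRNA RUS thus depends on the processing. *Tuba1c*, *Tuba8* and *Tubb6* fell in both arms.

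Some members of growing neurites fell as the cultures differentiated. *Gap43* decreased by 1.31 in shRNA CON and by 1.30 in shRNA RUS, and *Stmn2* by 1.22 and 1.96 (adjusted p = 1.09e-10 and 6.68e-13). *Stmn1* fell by 0.23 and 0.34, but neither fall passed with TPM as deposited (-0.08 and -0.02, adjusted p = 0.118 and 0.743). After quantile normalization its change was -0.01 in shRNA CON (adjusted p = 0.846), and it was 0.27 higher on day 7 in shRNA RUS (adjusted p = 2.11e-05). Its fall and, in shRNA RUS, its direction thus depend on the scaling. *Tubg1* fell by 0.26 and 0.22 and *Tppp3* by 0.31 in shRNA RUS. With TPM as deposited the fall of *Tubg1* in shRNA CON did not pass (-0.11, adjusted p = 0.304), and the values of *Tubg1* and *Tppp3* in shRNA RUS were 0.10 and 0.01, neither of them called. Without replicate 2 of day 5 or replicate 1 or 2 of day 7 of shRNA RUS, *Tubg1* was not called there (adjusted p from 0.0639 to 0.0958), and *Tppp3* was not without replicate 1, 2 or 3 of day 5 (0.0517 to 0.059). *Tppp* rose by 1.46 and 1.35. All 7 transport kinesins rose in shRNA RUS, by 0.32 (*Kif1b*) to 1.17 (*Kif21b*), and 3 of them in shRNA CON, where *Kif5a* rose by 0.50, *Kif21b* by 0.60 and *Kif5b* by 0.35. The *Kif5b* call in shRNA CON was lost without replicate 2 or 4 of day 5 or replicate 4 of day 7 (adjusted p from 0.0641 to 0.0688). *Crmp1*, *Dpysl2*, *Dpysl3* and *Dpysl5* rose in both arms, by 0.26 to 0.72 in shRNA CON and by 0.49 to 1.33 in shRNA RUS.

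**Figure D3:**
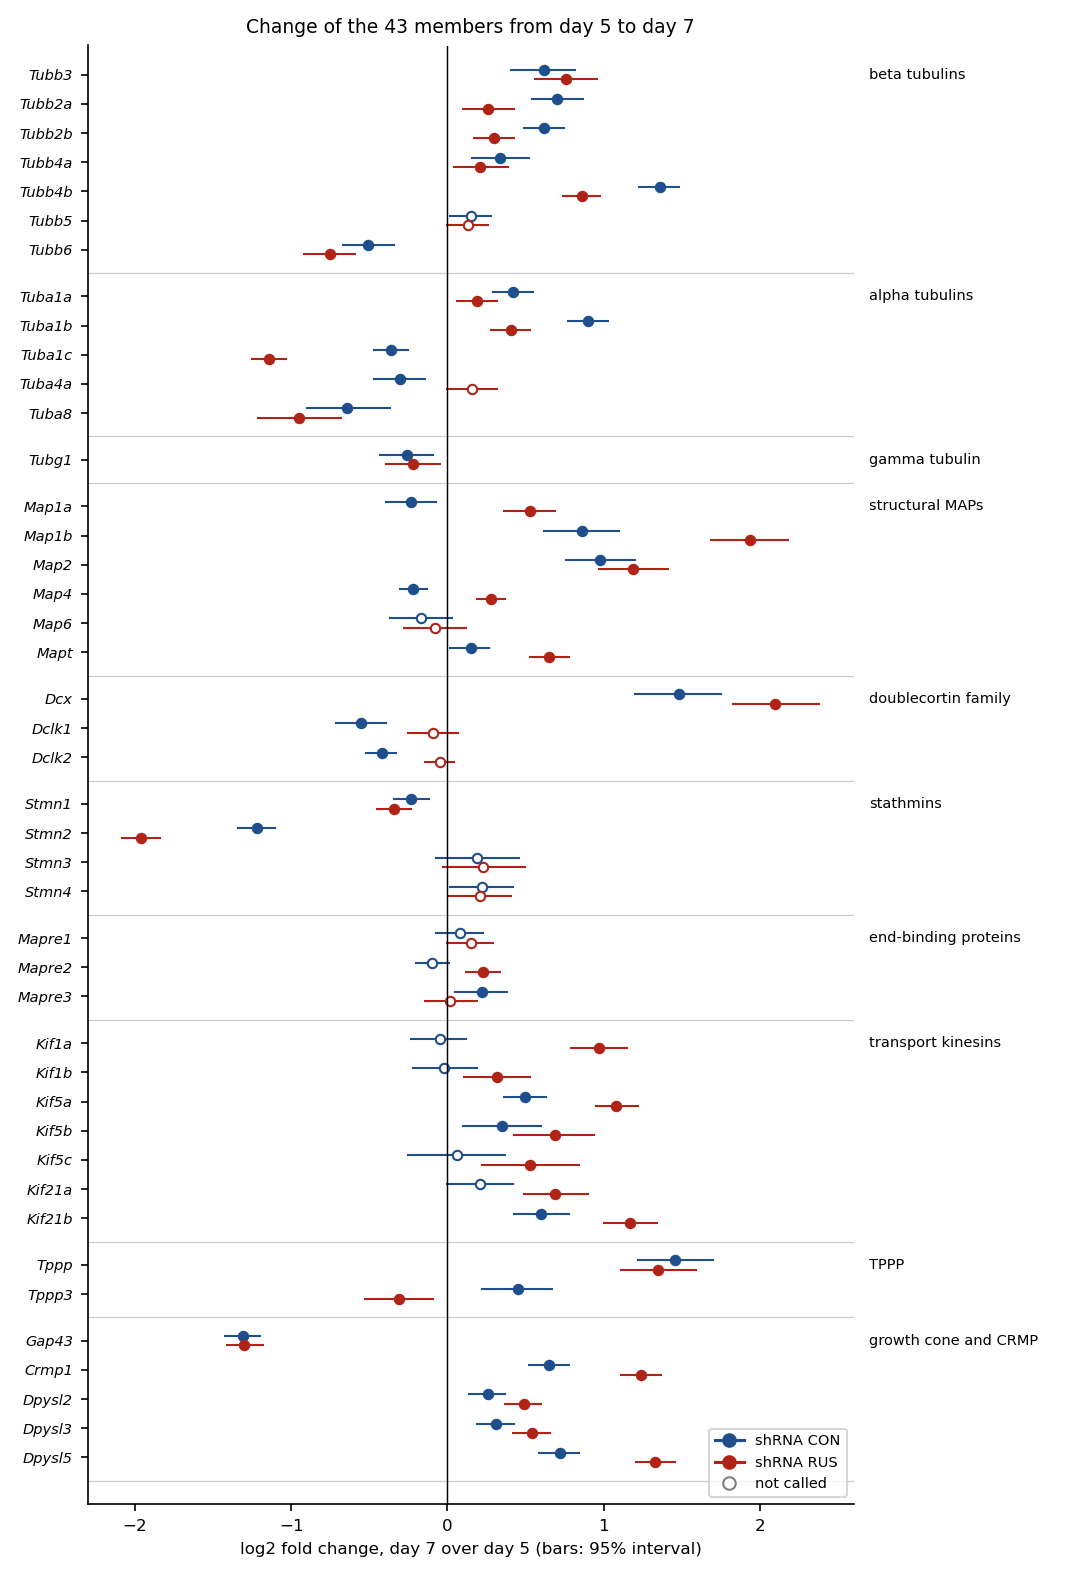
Log2 change from day 5 to day 7 of the 43 members (rows, by role) in shRNA CON (blue) and shRNA RUS (red), with 95% intervals from 1 limma fit over 16 libraries. Filled points passed the test. *Dcx* and *Tppp* lie far to the right in both arms, and *Gap43* and *Stmn2* far to the left. *Map1b* lies far to the right with shRNA RUS (1.94, beside 0.86 with shRNA CON), and *Map1a* and *Map4* fall with shRNA CON and rise with shRNA RUS.

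The effect of shRNA RUS itself differed between the days for 24 members, higher on day 7 in 17 and lower in 7, beside 15.2% and 14.6% of the 23789 genes. After quantile normalization there were 20 and 4. The 17 were 4 structural MAPs, all 3 doublecortin genes, 4 kinesins, 4 CRMP genes, *Tuba4a* and *Mapre2*. *Map1b* had the largest difference, 1.08 ± 0.16 on the log2 scale (adjusted p = 0.000192), followed by *Kif1a* with 1.03 ± 0.12 (adjusted p = 2.2e-05) and *Map1a* with 0.76 ± 0.11. For *Map1a* and *Map4* this came with a fall from day 5 to day 7 in shRNA CON, by 0.23 and 0.22, and a rise in shRNA RUS, by 0.53 and 0.28. Over the alternatives the rises ranged from 0.44 to 0.85 for *Map1a* and from 0.25 to 0.69 for *Map4*. The *Map1a* fall was not called without replicate 1 of day 5 or replicate 4 of day 7 of shRNA CON (adjusted p = 0.0582 and 0.0516), and neither fall passed with TPM as deposited (0.53 and 0.322) nor that of *Map4* after quantile normalization (0.21). *Dclk1*, *Dclk2* and *Tuba4a* fell in shRNA CON, by 0.55, 0.42 and 0.30, and were not called in shRNA RUS, and the fall of *Tuba4a* did not pass with TPM as deposited (-0.15, adjusted p = 0.0646). The 7 with the lower effect on day 7 were *Tuba1c*, *Tubb4b*, *Tuba1b*, *Tubb2a*, *Tubb2b*, *Stmn2* and *Tppp3*, from -0.78 for *Tuba1c* to -0.32 for *Tubb2b*. Of these, *Tubb2a*, *Tubb2b* and *Tuba1b* did not pass after quantile normalization (adjusted p = 0.222, 0.626 and 0.194), nor *Tubb2b* with TPM as deposited (0.126). *Tubb3*, *Map2*, *Tubg1* and *Gap43* had no difference that passed. The smallest called differences, 0.23 for *Dpysl2* and *Dpysl3*, depended on single libraries. *Dpysl2* was lost without replicate 1 or 4 of shRNA CON or 1 of shRNA RUS on day 5, or replicate 1, 3 or 4 of shRNA CON or 3 or 4 of shRNA RUS on day 7 (adjusted p from 0.0502 to 0.0684), and *Dpysl3* without replicate 1 or 3 of shRNA CON or 2 or 3 of shRNA RUS on day 5, or replicate 1, 2 or 3 of shRNA CON or 1 or 4 of shRNA RUS on day 7 (0.0577 to 0.0774).

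The make-up of each family within a library does not depend on the scaling between libraries. It does depend on how reads were divided between genes with shared windows, as given above for the *Tuba1* genes, *Tuba4a*, *Tubb2a*, *Tubb2b* and *Tubb4b*. The summed β-tubulins stood at 2540 to 2830 scaled TPM in shRNA CON and 1920 to 2380 with shRNA RUS on day 5, and at 4300 to 4550 and 2860 to 3110 on day 7. *Tubb3* made up 5.88% ± 0.53 (SD, n = 4) of them in shRNA CON and 6.31% ± 0.29 with shRNA RUS on day 5, with overlap. On day 7 its share was 5.40% ± 0.21, from 5.25% to 5.70%, in shRNA CON and 8.03% ± 0.59, from 7.50% to 8.75%, in shRNA RUS, without overlap. The level of *Tubb3* did not pass the test there, while the sum of the family was lower. *Tubb4b* took 36.1% ± 0.7 of the family in shRNA CON on day 7 and 30.6% ± 1.1 in shRNA RUS, and 23.5% and 22.5% on day 5. *Tuba1a* made up 78.2% and 80.7% of the α-tubulins on day 5 and 73.1% and 79.0% on day 7, with SDs of 0.19 to 0.61 and no overlap on either day.

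*Map2* and *Mapt*, the neuronal MAPs, made up 55.5% ± 2.5 of the sum with *Map4* in shRNA CON and 44.8% ± 2.9 with shRNA RUS on day 5, and 72.1% ± 1.4 and 57.8% ± 2.6 on day 7, without overlap. On day 7 the means in shRNA CON and shRNA RUS were 307 and 259 for *Map2*, 48.3 and 87.9 for *Mapt* and 137 and 253 for *Map4*. The share there was thus lower although *Mapt* rose, while *Map4* rose as well and *Map2* fell. The neuronal stathmins *Stmn2*, *Stmn3* and *Stmn4* held 22.6% ± 0.1 and 28.0% ± 0.6 of the stathmins on day 5, without overlap, and 20.1% ± 0.6 and 21.1% ± 0.6 on day 7, with overlap. *Kif5a* and *Kif5c* together held between 26.4% and 31.4% of the *Kif5* genes in all 16 libraries, and *Mapre3* between 23.1% and 34.9% of the *Mapre* genes, and the shRNAs overlapped on each day. These shares are descriptions and were not tested.

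**Figure D4:**
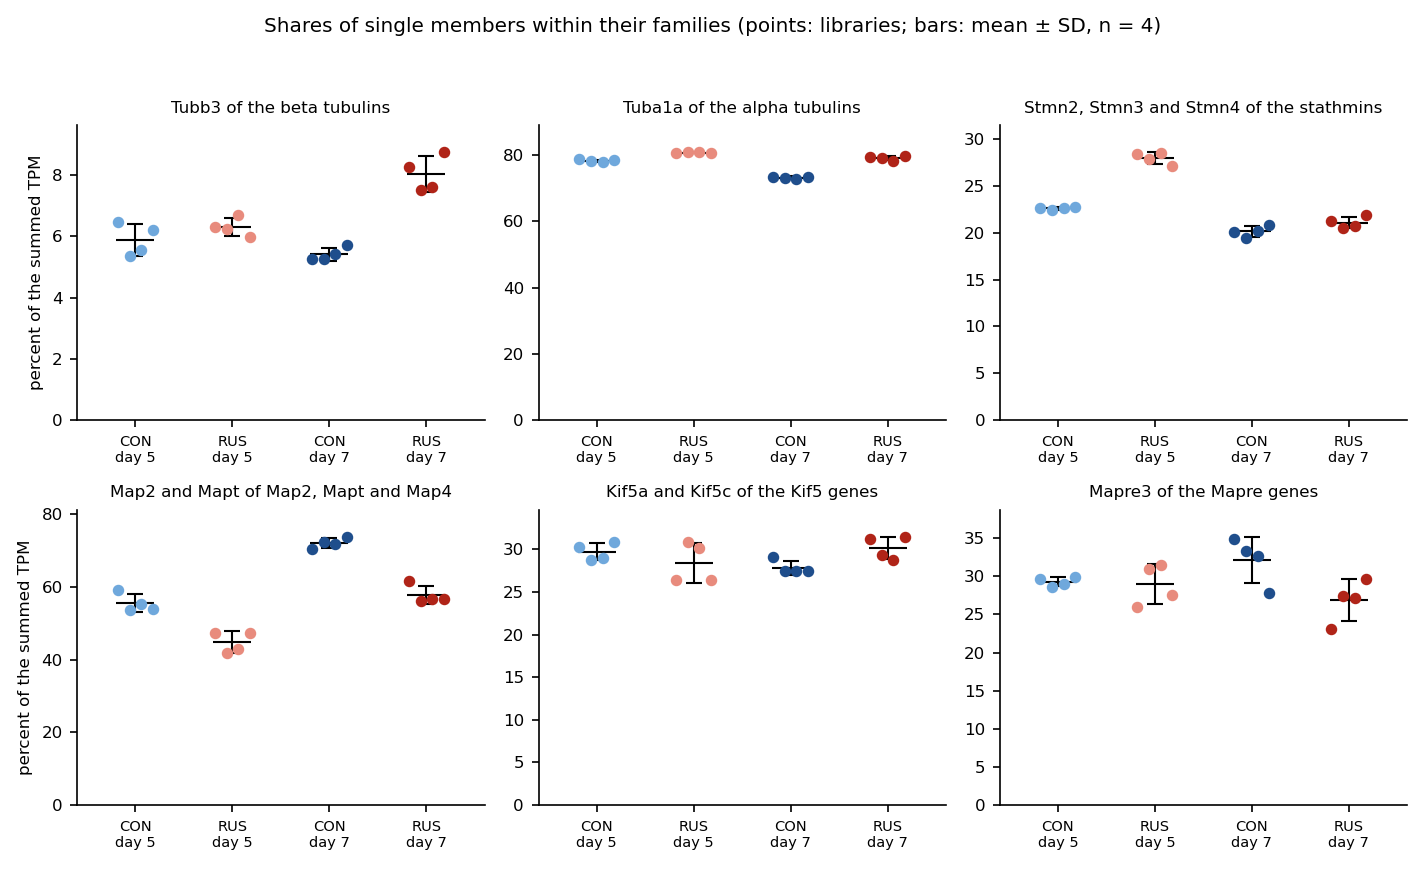
Share of the summed TPM of a family (percent, axes from 0) taken by the named members in each of the 16 libraries. Points are libraries and bars the mean ± SD of 4. The share of *Tubb3* on day 7 is 7.50% to 8.75% with shRNA RUS and 5.25% to 5.70% with shRNA CON. That of *Map2* and *Mapt* in their sum with *Map4*, which rose, is lower with shRNA RUS on both days.

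The rest of the microtubule genes were counted from lists. Of 22 mitotic microtubule genes, which build and move the spindle, 21 were lower on day 5 (median log2 fold change -0.92) and 22 on day 7 (-1.17), and *Ckap5* was the one not called on day 5. The centrosomal kinase *Aurka* fell by 0.74 and 1.52 and the spindle factor *Tpx2* by 0.94 and 1.42. Of the 80 other genes, 20 were higher and 12 lower on day 5 and 30 and 14 on day 7, with medians of 0.05 and 0.09. Over all genes, 14.8% were higher and 17.9% lower on day 5 and 23.4% and 25.8% on day 7, and the counts of the short lists are to be read beside these shares. Among 21 cytoplasmic dynein and dynactin genes 8 were higher and 2 lower on day 5 and 10 and 5 on day 7, where the heavy chain *Dync1h1* rose by 0.66 and the light chain *Dynll1* fell by 0.59. Of 13 kinesin light chains and adaptors 5 were higher and none lower on day 5 and 8 and 1 on day 7, when the mitochondrial adaptors *Trak1* and *Trak2* rose by 0.65 and 0.77. The 9 plus-end factors had 2 higher and 2 lower on day 5 and 6 higher and none lower on day 7, and *Clip2* and *Clip3*, linkers of tips to membranes, rose by 0.97 and 1.00 on day 7 (adjusted p = 2.82e-06 and 2.65e-06). Of 16 tubulin modifying enzymes 2 were higher and 4 lower on day 5 and 2 and 6 on day 7, *Agbl4*, which removes glutamates from tubulin tails, falling by 0.63 and 1.12. Of 14 severing and nucleation genes none was higher and 3 were lower on day 5, and 3 were higher and 1 lower on day 7, and *Spast*, the severing enzyme spastin, fell by 0.69 and 0.45. Tubulin folding factors had 3 higher and 1 lower of 7 on day 5 and 1 and 1 on day 7, when *Arl2* rose by 0.89 and the β-tubulin chaperone *Tbca* fell by 0.52.

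**Figure D5:**
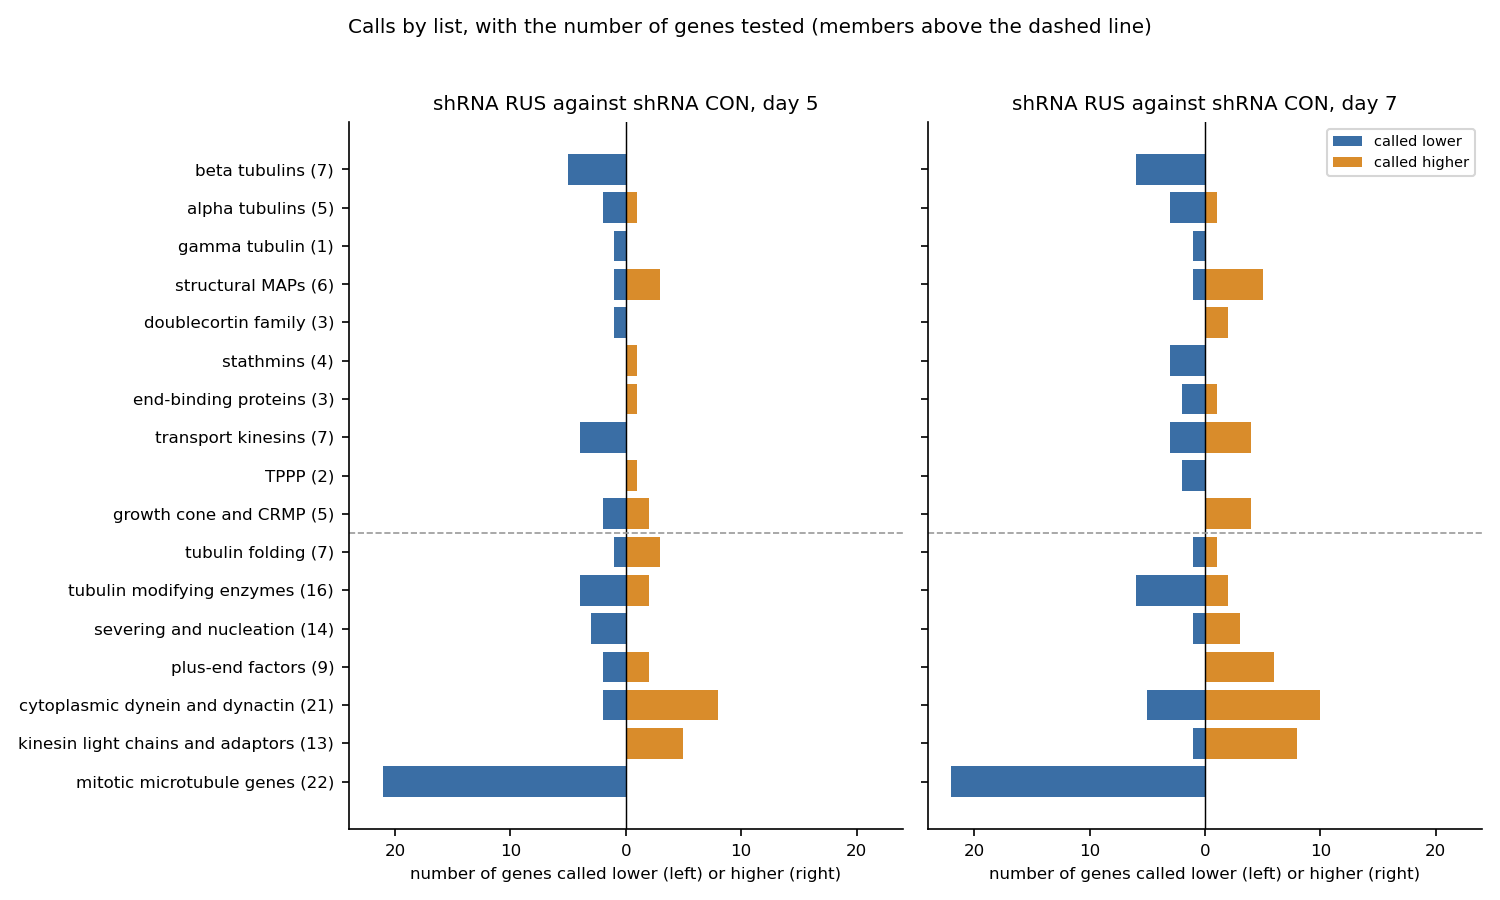
Number of genes called lower (blue, to the left) and higher (orange, to the right) with shRNA RUS on day 5 and day 7, for the 10 role groups of the members above the dashed line and 7 lists of other microtubule genes below it. The number of genes tested stands in brackets. The mitotic list has 21 and 22 of 22 genes lower, and the β-tubulins 5 and 6 of 7.

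A word in 3′ UTRs was looked up among the members, since CCTGGATA had come up in an earlier look at these data. It was found in *Kif1a*, the member that fell most on day 5, and in *Map6*. Of the genes tested on day 5 that have a 3′ UTR, 352 (2.32%) held it. Their 3′ UTRs had a median of 2572.5 bases, beside 786 in genes with neither CCTGGATA nor its shorter form CTGGAT. That of *Kif1a* has 2993 bases and that of *Map6* 2680. The sites are shown with 11 bases on either side and the word in capitals, 5′ to 3′ on the transcript (GENCODE vM21).
Kif1a, site 1: cactgacatgaCCTGGATActcttgtgacc
Kif1a, site 2: ccctgcttatgCCTGGATAacacttctaat
Map6, site 1: gctttaggtgaCCTGGATAatgttcttctc
*Map6* had a log2 fold change of 0.13 on day 5 that was not called and was higher by 0.23 on day 7. Since the word was taken from these data, these matches are a description and no separate support for the fall of *Kif1a*.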

How the data were processed

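Expression was measured by polyA RNA-seq in 16 libraries, 4 for each shRNA and day, grouped by their labels. According to the study's methods the authors sequenced on an Illumina instrument, aligned the reads to the mouse genome with STAR and estimated levels with RSEM, and the tools' versions were not given in the sources used here. The TPM values deposited by the authors, in 1 table for each day, were used. The tables also hold the authors' own comparisons from DESeq2 (mean counts, log2 fold changes, standard errors, statistics and p-values), which were not used.

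TPM was divided by a median-ratio factor per library, set over genes with at least 1 TPM, and taken to log2 with a pseudocount of 0.1. A fold change is on that log2(TPM + 0.1) scale, which understates the change of low genes. Genes whose mean reached 0.1 TPM were tested with limma 3.58.1 (eBayes with a trend, R 4.3.3) and Benjamini-Hochberg adjustment at 0.05, in 1 fit for each day over 8 libraries and 1 fit over all 16 for the change between days and for the difference of the shRNA effect. Levels are scaled with factors over 16 libraries. The limma fit was tested on simulated data with independent normal values for each gene. These held no outlying library and no scaling step, so that test says nothing about either. Tables and figures were made with Python 3.11.15, pandas 2.3.3, numpy 2.4.6 and matplotlib 3.10.9.

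The members and gene lists were chosen with earlier results of these data known. Values in every library are given for the genes that the study measured (*Tubb3*, *Map2*, *Mapt*, *Dcx* and *Dclk2*), and in each role for the most abundant member and the one with the largest called change. Alternatives were pseudocounts of 0.01 and 1, a filter at 1 TPM or none, TPM as deposited, quantile normalization, no trend, the replicate number as a block, and each library left out. TPM keeps no depth, so no counting error can be given.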

Additional observations from a re-analysis of the deposited data

Results flagged for a closer look

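Of the 172 groups of 4 libraries tested, 4 for each of the 43 members, 16 held a library far from the other 3 by Dixon's test, and chance alone flags about 1 in 20. Replicate 4 of shRNA RUS on day 5 accounted for 7 of the 16. It was low in *Tubb2a* (409 scaled TPM, beside 531 to 546 in the others), *Tubb2b* (444, beside 531 to 548), *Tubb5* (399, beside 479 to 487), *Stmn3* (37.1, beside 58.7 to 59.3) and *Tppp3* (293, beside 411 to 425). It was high in *Map1b* (56.1, beside 33.7 to 37.3) and *Kif1b* (184, beside 126 to 134). Replicate 1 of the same group was low in *Map4* (195, beside 212 to 215). In shRNA CON on day 5 replicate 4 was high in *Tubb5* (607, beside 549 to 553) and *Tppp3* (338, beside 272 to 278). In shRNA CON on day 7 replicate 4 was high in *Tubb2b* (1030, beside 995 to 999) and *Kif21a* (53.9, beside 42.5 to 44.1), and replicate 1 in *Tuba1a* (4500, beside 4130 to 4190). In shRNA RUS on day 7 replicate 1 was high in *Map2* (289, beside 246 to 252) and low in *Map1a* (42.8, beside 48.2 to 49.1), and replicate 2 was low in *Tuba4a* (43.3, beside 49.7 to 51.0).

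The effect of shRNA RUS differed between the days for 24 members by limma's test of the difference, given as the effect on day 7 minus that on day 5 on the log2 scale. It was lower on day 7 for *Tuba1c* (-0.78), *Tppp3* (-0.76), *Stmn2* (-0.73), *Tubb4b* (-0.50), *Tuba1b* (-0.49), *Tubb2a* (-0.44) and *Tubb2b* (-0.32). Among the higher ones were the structural MAPs *Map1b* (1.08), *Map1a* (0.76), *Mapt* (0.51) and *Map4* (0.50), and the doublecortin genes *Dcx* (0.62), *Dclk1* (0.46) and *Dclk2* (0.37). The kinesins *Kif1a* (1.03), *Kif5a* (0.59), *Kif21b* (0.57) and *Kif21a* (0.48) were higher as well. The CRMP genes *Dpysl5* (0.62), *Crmp1* (0.59), *Dpysl2* (0.23) and *Dpysl3* (0.23), with *Tuba4a* (0.47) and *Mapre2* (0.33), made up the rest.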

How the results depend on the processing

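Of 177 values, 177 kept their direction and their side of the threshold with a pseudocount of 1, 176 with 0.01, 175 with a filter at 1 TPM, 169 without a filter, 162 without a trend, 158 after quantile normalization and 151 with TPM as deposited. With TPM as deposited, 4 members were higher with shRNA RUS on day 5, while 7 with shRNA CON and 5 with shRNA RUS fell between the days. After quantile normalization 4 had a lower effect on day 7. Same-numbered libraries had correlations from -0.0991 to 0.0334 over all genes tested, after the group means were taken off. These values show no pairing by replicate number, but with 4 libraries in a group they cannot exclude shared cultures. With the number as a block, 5 members were higher and 10 lower on day 5. Direction turned on day 5 with TPM as deposited for *Tubb2a* (-0.14), *Tuba1a* (-0.13), *Map6* (-0.03), *Dclk2* (-0.13) and *Stmn4* (-0.05), and after quantile normalization for *Tubb2a* (-0.17), *Tuba1a* (-0.13) and *Dclk2* (-0.09), none of them called. From day 5 to day 7 in shRNA RUS it turned for *Tubg1* (0.10) and *Tppp3* (0.01) with TPM as deposited, and for *Stmn1* (0.27) and *Tppp3* (0.15) after quantile normalization. Leaving out 1 library at a time, 2024 of 2144 values kept direction and side. The day 5 effect then ranged from -0.02 to 0.12 for *Tubb2a*, -0.08 to 0.05 for *Dclk1*, 0.00 to 0.06 for *Dclk2* and -0.24 to 0.01 for *Map1b*, and that of *Tubb3* on day 7 from -0.01 to 0.07. Counts ranged from 6 to 10 higher and 13 to 19 lower on day 5, and from 16 to 17 and 18 to 20 on day 7. The cause of these changes was not tested. Without counts the depth behind low values is unknown.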
